A study of Mus musculus with 3 samples.

Results

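The genes described here are 35 genes of glycolysis and the pentose phosphate pathway, taken by name from a fixed list of transporters and enzymes, of 55536 annotated genes in the deposited tables. All 35 names were found. Aldoa carries 2 gene identifiers in the annotation, and the more abundant one was used. The cells were macrophages grown in culture from the bone marrow of C57BL/6J mice (bone marrow-derived macrophages). They received Lipid A, the membrane anchor of endotoxin and a ligand of Toll-like receptor 4, at 100 ng/ml for 12 h, went without it for 12 h after a wash, and received 100 ng/ml again for 25 min. Ribosomal RNA was removed from 1 µg of total RNA of the cytosolic fraction, and 3 libraries of this 1 group, biological replicates 1 to 3, were sequenced. The 3 share 1 donor entry, so an SD may hold no more than technical spread between samples. Sex and age of the animals are not given by the labels. With 1 group, no effect of Lipid A on any gene could be measured.

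Glycolysis splits glucose into pyruvate in the cytosol and yields ATP and NADH, and lactate dehydrogenase turns pyruvate into lactate to restore the NAD. The pentose phosphate pathway branches off after the hexokinase step. Its oxidative arm makes NADPH, which phagocytes use for the oxidative burst and for antioxidant defence, and its non-oxidative arm interconverts sugar phosphates between ribose and the intermediates of glycolysis. Macrophages exposed to endotoxin are known for a high rate of glycolysis.

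Total expected counts over annotated genes were 55409751, 21258877 and 45624639 in replicates 1, 2 and 3, of which the members held 270142, 98042 and 214438. Levels are TPM, a transcript abundance per length within a library's total, which allows genes to be set side by side within a library. Nuclear protein-coding genes held 29.6%, 40.5% and 34.8% of all TPM in the 3 libraries, so levels between libraries were compared as counts per 1000000 counts of those genes, called CPM here. On that scale 3 counts, the limit that a count of 0 allows from counting error alone, are 0.0626, 0.153 and 0.074 CPM. All 8 macrophage markers, Adgre1, Csf1r, Cd68, Fcgr1, Itgam, Mertk, Lyz2 and Spi1, reached 1 TPM in each of the libraries. None of the 6 T cell, 5 stromal and 7 erythroid markers did. Of 7 neutrophil markers S100a8 and S100a9 reached it, with Ly6g and Retnlg at 0 counts, and of 5 B cell markers Cd79b did. The erythroid markers, of interest because red cells use Bpgm, summed to 0.26, 0.03 and 0.10 TPM in replicates 1, 2 and 3, the neutrophil markers to 9.11, 14.8 and 8.71 TPM and the B cell markers to 1.69, 3.93 and 1.47 TPM. The macrophage markers summed to 4906, 7632 and 5670 TPM. In such bulk RNA, fewer cells that express a gene and less RNA of it per cell cannot be told apart.

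Of the 35 members, 31 reached 1 TPM in all 3 libraries, beside 42.1% of 22015 nuclear protein-coding genes. The exceptions were Pfkfb1, Aldoc, Ldhb and Slc16a1. The median level over the members was 16.3, 26.4 and 24.4 TPM in replicates 1 to 3. Over the 9275 protein-coding genes that reached 1 TPM in all 3 it was 8.79, 11.6 and 9.37 TPM. Among the 9604 protein-coding genes whose mean reached 1 TPM, 11 members lay in the top 10%, namely Hk3, Gpi1, Aldoa, Tpi1, Gapdh, Pgk1, Pgam1, Eno1, Pkm, Ldha and Pgd. In order of mean level, 15 members stood at 50 TPM or more, 6 between 10 and 50, 12 between 1 and 10, and 2 below 1. Gapdh led, followed by Pkm and Aldoa. Of the 34 pairs of neighbours in that order, 9 kept their order in all 3 libraries and 25 did not, so most neighbours cannot be ranked.

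**Figure D1:**
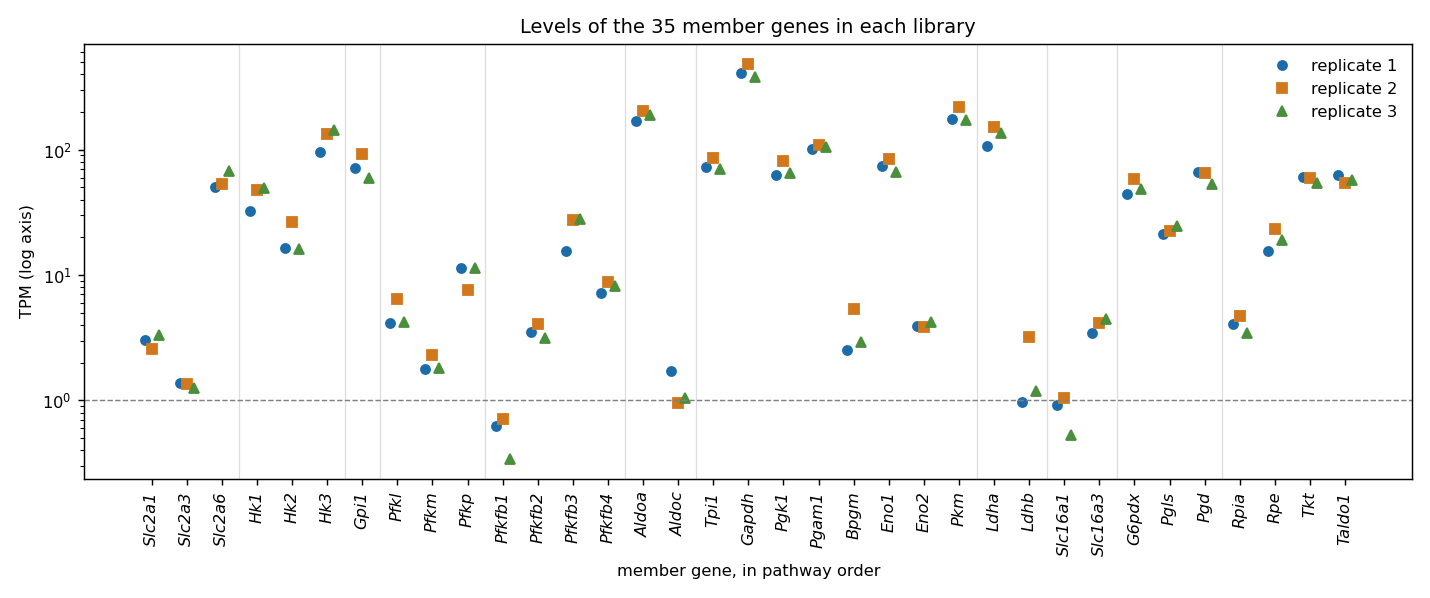
TPM on a log axis for each of the 35 members, in pathway order, with 1 point per library and a dashed line at 1 TPM. Gapdh stands highest in every library, between 380 and 485 TPM, and Pfkfb1 lies under the line in all 3.

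Glucose enters the cell through carriers of the SLC2A family. Slc2a6 (chr2:27021363-27027998 on mm10), a carrier of the lysosomal membrane in macrophages, had 50.4, 52.8 and 67.7 TPM in replicates 1, 2 and 3. Slc2a1, the widely expressed plasma membrane carrier GLUT1, had 3.01, 2.58 and 3.33 TPM. Slc2a3, the high-affinity carrier GLUT3, had 1.38, 1.34 and 1.26 TPM. The order Slc2a6, Slc2a1, Slc2a3 held in all 3 libraries. In the read-based table Slc2a1 and Slc2a3 were level in replicate 2, at 1.51 TPM each, so their order there depends on the quantification. Slc2a6 made up 92.9% ± 0.842 (SD, n = 3) of their summed TPM. Of 5 further SLC2A genes, Slc2a8 (4.55 TPM ± 1, SD, n = 3) and Slc2a9 (7.01 ± 2.37), a urate carrier, also reached 1 TPM in all 3 libraries, and both were above Slc2a1 in each library. Slc2a2, Slc2a4 and Slc2a5 did not reach it.

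Hexokinases phosphorylate glucose and so trap it in the cell. Hk3 (chr13:55005985-55021385) had 95.7, 134 and 142 TPM in replicates 1, 2 and 3. Hk1, the widely expressed form that binds mitochondria, had 32.2, 48.0 and 49.1 TPM. Hk2, the form known to be induced in many activated cells, had 16.3, 26.4 and 16.2 TPM. The order Hk3, Hk1, Hk2 held in all 3 libraries. Hk3 exceeded Hk1 by 1.51 ± 0.04 (SD, n = 3) on the log2(TPM + 1) scale, a ratio of 2.78 to 2.97 in TPM. It exceeded Hk2 by 2.61 ± 0.40. The summed hexokinase level was shared as 66.4% ± 2.17 Hk3, 23.0% ± 0.653 Hk1 and 10.6% ± 2.52 Hk2. The share of Hk2 depends on a 594-base processed transcript, Hk2-202, which took 29.2% to 43.0% of the TPM of Hk2 in the alignment-based table and 0% in the read-based one. Gpi1, the isomerase that forms fructose 6-phosphate, followed with 71.1, 92.1 and 58.9 TPM.

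Phosphofructokinase 1 catalyses the committed step of glycolysis and is built from liver, muscle and platelet type subunits. Its 3 genes were low beside Gpi1 and Aldoa, which act just before and after it. Pfkp, the platelet type, had 11.5, 7.60 and 11.4 TPM in replicates 1, 2 and 3. Pfkl, the liver type, had 4.13, 6.45 and 4.24 TPM. Pfkm, the muscle type, had 1.78, 2.30 and 1.80 TPM. By mean level Pfkp ranked in the top 47.6% of the 9604 genes, Pfkl in the top 69.6% and Pfkm in the top 90.3%. Pfkp was above Pfkl and Pfkl above Pfkm in every library, although the Pfkl to Pfkp ratio moved from 0.360 and 0.374 in replicates 1 and 3 to 0.849 in replicate 2. Summed over the 3 genes, phosphofructokinase 1 stood at 17.4, 16.4 and 17.4 TPM. The hexokinase sum was 11.0 ± 2.36 (SD, n = 3) times as high and the aldolase sum 11.1 ± 1.35 times. Both sums were higher in every library. Exons of Pfkp overlap those of Pitrm1 and exons of Pfkm overlap those of Senp1, both on the opposite strand. The counts of Pitrm1 equalled 93.2% of those of Pfkp, and the counts of Senp1 equalled 402% of those of Pfkm. Whether strand was used in counting is not given in the sources used here, so the levels of both genes are uncertain.

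PFKFB enzymes set the level of fructose 2,6-bisphosphate, an activator of phosphofructokinase 1. Pfkfb3, whose product mainly makes the activator, led with 15.5, 27.5 and 28.2 TPM in replicates 1, 2 and 3. Pfkfb4 had 7.17, 8.86 and 8.23 TPM and Pfkfb2 had 3.50, 4.10 and 3.15 TPM. Pfkfb1, the liver and muscle form, had 0.63, 0.71 and 0.34 TPM from 66, 18 and 26 counts. This order, with Pfkfb3 at 65.1% ± 6.56 (SD, n = 3) of the sum, was the same in every library. Pfkfb1 shares exon positions with Apex2 and Pfkfb2 with Yod1, each on the opposite strand, and those neighbours held counts equal to 665% and 107% of the member's.

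**Figure D2:**
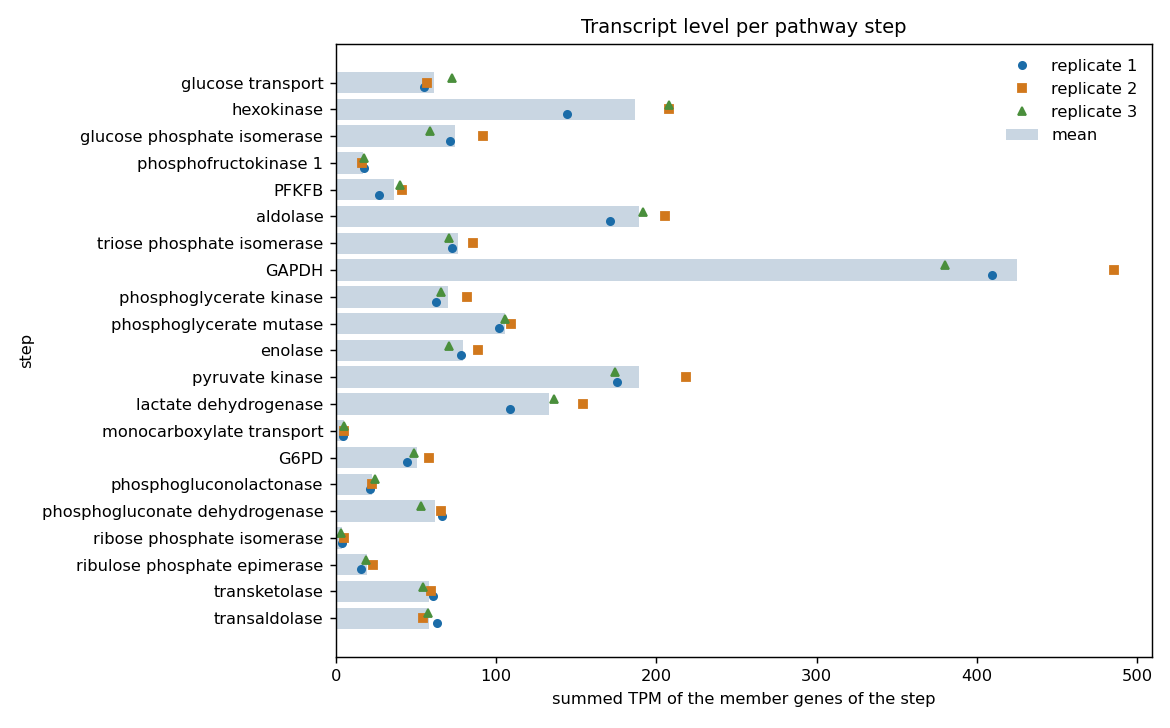
Summed TPM of the member genes that carry out each step, as bars for the mean and points for the 3 libraries. Phosphofructokinase 1 lies between 16.4 and 17.4 TPM in the 3 libraries, beside 144 to 208 TPM for hexokinase and 171 to 205 TPM for aldolase.

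Below phosphofructokinase the levels were high. Aldolase cleaves fructose 1,6-bisphosphate, and Aldoa had 170, 204 and 191 TPM in replicates 1, 2 and 3, beside 1.70, 0.95 and 1.05 TPM for Aldoc, the brain type. Aldoa made up 99.3% ± 0.285 (SD, n = 3) of the sum of the 2 genes. Tpi1, which interconverts the triose phosphates, had 72.4, 85.5 and 70.6 TPM. Gapdh (chr6:125161715-125166467), which makes NADH at the next step, had 410, 485 and 380 TPM. By mean level it ranked in the top 0.760% of the 9604 genes. Pgk1, the first step that yields ATP, had 62.5, 81.6 and 65.4 TPM. Pgam1, the mutase, had 102, 109 and 106 TPM, and Bpgm, which makes the 2,3-bisphosphoglycerate of red cells, had 2.52, 5.31 and 2.92 TPM. Eno1 had 74.4, 85.0 and 66.1 TPM and Eno2, the neuronal enolase, had 3.94, 3.84 and 4.24 TPM. Within each of these families 1 gene held nearly all of the level in all 3 libraries. The high Bpgm value of replicate 2 rests on the 596-base transcript Bpgm-205. In the alignment-based table it held 57.0% of the TPM of Bpgm from 29 counts there and 0 counts in the others. In the read-based table it held 26.6%, 53.6% and 3.96% in replicates 1, 2 and 3. In CPM, which ignores length, Bpgm was lowest in replicate 2, at 9.51, 7.72 and 9.42 CPM.

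Pyruvate kinase makes the last ATP of glycolysis, and Pkm had 175, 218 and 174 TPM in replicates 1, 2 and 3. Pklr, the liver and red cell gene, was listed at 0. Pkm encodes M1 and M2 enzymes that differ by 1 of 2 mutually exclusive exons. The transcript with the downstream exon, Pkm-201 (M2), held 84.9%, 90.3% and 86.3% of the TPM of Pkm. The one with the upstream exon, Pkm-202 (M1), held 13.1%, 8.91% and 13.0%. The M2 transcript was thus the larger in every library, with 88.2% ± 2.47 (SD, n = 3) of the pair, and the read-based table gave 86.5% to 90.2%. Both exons are the ninth of their transcript and 167 bases long, on the plus strand of mm10 at chr9:59675568-59675734 for M2 and chr9:59675029-59675195 for M1. They are shown because they are all that tells the enzymes apart. Capitals mark the 64 positions at which they differ, and 61.7% of positions are identical.
Pkm-201: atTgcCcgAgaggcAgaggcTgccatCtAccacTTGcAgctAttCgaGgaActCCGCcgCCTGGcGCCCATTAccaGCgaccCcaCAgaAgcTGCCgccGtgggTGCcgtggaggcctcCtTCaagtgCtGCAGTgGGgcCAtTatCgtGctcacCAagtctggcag
Pkm-202: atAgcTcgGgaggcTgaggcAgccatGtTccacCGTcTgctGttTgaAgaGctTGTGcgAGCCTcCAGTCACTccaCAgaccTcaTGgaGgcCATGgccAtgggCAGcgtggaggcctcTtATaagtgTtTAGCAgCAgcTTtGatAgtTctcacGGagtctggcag

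Pfkp, examined in this way after its values had been seen, has a like pair of 153-base exons on the minus strand, at chr13:6593101-6593253 in Pfkp-201 and chr13:6597859-6598011 in Pfkp-207. They agree at 58.8% of positions, and capitals mark the 63 that differ.
Pfkp-201: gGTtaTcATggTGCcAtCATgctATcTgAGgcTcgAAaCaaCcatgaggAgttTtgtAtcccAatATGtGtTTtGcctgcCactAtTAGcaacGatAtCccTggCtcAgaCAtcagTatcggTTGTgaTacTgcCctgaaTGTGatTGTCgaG
Pfkp-207: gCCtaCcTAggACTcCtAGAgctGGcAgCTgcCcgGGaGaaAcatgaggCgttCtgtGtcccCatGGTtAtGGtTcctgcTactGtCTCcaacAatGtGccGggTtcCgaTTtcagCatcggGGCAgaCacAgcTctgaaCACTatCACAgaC

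Neither form led in all libraries. Pfkp-201 held 53.9%, 41.5% and 56.0% of the pair's TPM in replicates 1, 2 and 3 in the alignment-based table. The read-based table gave 71.1%, 63.8% and 72.5%, so the order of the 2 transcripts in replicate 2 depends on the quantification.

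Lactate dehydrogenase is built from A and B subunits. Ldha had 108, 151 and 135 TPM in replicates 1, 2 and 3 and Ldhb had 0.97, 3.21 and 1.19 TPM, the latter from 94, 68 and 55 counts. Ldha made up 98.7% ± 0.692 (SD, n = 3) of the sum. Lactate leaves the cell through monocarboxylate transporters. Slc16a3 (MCT4), the form known in glycolytic cells, had 3.45, 4.17 and 4.50 TPM, and Slc16a1 (MCT1) had 0.92, 1.04 and 0.53 TPM. Both were below Slc16a7 (MCT2), which is not among the 35, at 17.8, 32.7 and 22.7 TPM. Slc16a7 held 82.8% ± 3.13 (SD, n = 3) of the TPM summed over Slc16a1, Slc16a3, Slc16a7 and Slc16a8. Bsg, the chaperone of MCT1 and MCT4, had 75.1, 97.6 and 78.7 TPM.

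All 7 pentose phosphate genes reached 1 TPM in all 3 libraries, beside 42.1% of nuclear protein-coding genes. G6pdx, the entry enzyme that makes the first NADPH, had 44.2, 58.2 and 48.8 TPM in replicates 1, 2 and 3. Pgls, the lactonase, had 21.3, 22.6 and 24.4 TPM and Pgd, which makes the second NADPH, had 66.2, 65.3 and 53.3 TPM. Pgd was above G6pdx in each library, by 0.29 ± 0.25 (SD, n = 3) on the log2(TPM + 1) scale, a difference about as large as its spread. In the non-oxidative arm, Tkt had 60.8, 59.1 and 54.1 TPM and Taldo1 had 62.8, 54.3 and 57.4 TPM. These 2 did not keep an order, since Tkt was higher in 1 of 3 libraries. The isomerase and the epimerase that act on ribulose 5-phosphate were lower, with 4.07, 4.73 and 3.45 TPM for Rpia and 15.4, 23.5 and 19.1 TPM for Rpe. Rpia was below Rpe in every library. G6pdx overlaps exons of Ikbkg, Rpe those of Kansl1l and Tpi1 those of Spsb2, all on the opposite strand, with counts equal to 26.1%, 20.9% and 13.1% of the member's.

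The main Tkt transcript, also examined after its values had been seen, was Tkt-209, which the annotation classes as a processed transcript and whose first exon begins 8478 bases downstream of that of Tkt-201. It held 75.8%, 70.7% and 73.7% of the TPM of Tkt, beside 22.7%, 27.4% and 25.2% for the protein-coding Tkt-201. It also led in the read-based table, at 79.4% on average. Of the 35 members, 34 had a protein-coding leading transcript and Tkt did not. The leading transcript was the same in both tables for 30 members, and differed for Slc2a3, Hk1, Pfkfb1, Pfkfb4 and Aldoc. Pfkfb4 divided its level between 2 transcripts whose first exons begin 124 bases apart. Pfkfb4-201 held 30.2% and 34.6% of the pair in replicates 1 and 3 and 83.2% in replicate 2, and in the read-based table it was likewise highest in replicate 2.

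**Figure D3:**
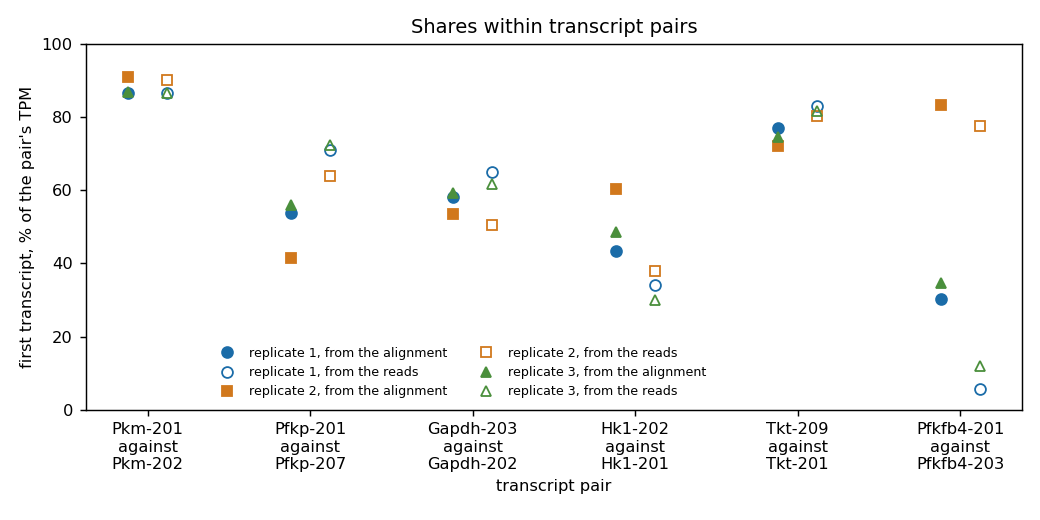
Share of the first transcript in the summed TPM of each pair, per library, with filled points from the alignment-based table and open points from the read-based one. Pkm-201 lies between 86.5% and 91.0% throughout, whereas Pfkfb4-201 reaches 83.2% in replicate 2, beside 30.2% and 34.6% in replicates 1 and 3.

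Set side by side within a library, the 23 genes from hexokinase to lactate dehydrogenase had a median of 16.3, 27.5 and 28.2 TPM in replicates 1, 2 and 3, and the 7 pentose phosphate genes had 44.2, 54.3 and 48.8 TPM. The difference of median log2(TPM + 1), glycolysis minus pentose phosphate, was -1.38, -0.96 and -0.77. Gene by gene, glycolysis had the lower median in all 3 libraries, with an average difference of -1.04. The size depends on the summary, since it was -0.41 with means in place of medians. Leaving out Pfkfb1, the only one of these genes below a mean of 1 TPM, gave -0.62. The 23 genes count minor isozymes such as Aldoc and Ldhb singly, whereas each pentose phosphate step has 1 gene. With isozymes summed, every step from hexokinase to lactate dehydrogenase except phosphofructokinase 1 and PFKFB exceeded the pentose phosphate median in each library. The lower median thus does not place most glycolytic steps below the pentose phosphate pathway. For Gpi1 the comparison counts all its transcripts. Gpi1-201 alone, at 35.4, 41.9 and 37.2 TPM in replicates 1, 2 and 3, was below the pentose phosphate median. That median also counts all transcripts, among them Tkt-209. Of the 19 pairs of isozymes or enzymes of 1 arm that were compared, 18 had the same direction in all 3 libraries, Tkt and Taldo1 being the exception. An exact two-sided sign-flip test over 3 libraries cannot go below p = 0.25, and each of the 18 pairs gave 0.25.

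Of 20 tissue-restricted isozymes and carriers, 4 reached 1 TPM in all 3 libraries, namely Slc2a8, Slc2a9, Slc16a7 and Eno3, beside 42.1% of nuclear protein-coding genes. A further 7 of the 20 had no counts in any library, a share close to the 33.1% of protein-coding genes without counts. Of 20 genes of branch points and regulation, 16 reached 1 TPM in all 3 libraries and 2 had no counts. Txnip, which restrains glucose uptake, had 54.8, 93.6 and 61.0 TPM and Hif1a, a transcription factor that drives glycolytic genes, had 14.8, 16.9 and 16.5 TPM. Neither gluconeogenic fructose bisphosphatase, Fbp1 or Fbp2, reached 0.1 TPM in any library.

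The 3 libraries differed by little for most members. Among the 33 members whose mean reached 1 TPM, the highest library was 1.29 times the lowest in CPM at the median, beside 1.27 over all 9604 genes. In 8 of the 33 it was at least 1.5 times, beside 19.5% of all genes. These were Slc2a1, Slc2a3, Slc2a6, Pfkp, Pfkfb3, Aldoc, Ldhb and Taldo1. The smallest ratio was that of G6pdx, with 200, 187 and 189 CPM. Pfkp had 64.8, 32.9 and 55.4 CPM and was low in replicate 2. Pfkfb3 had 119, 164 and 194 CPM and was low in replicate 1. Hk3 had 475, 500 and 628 CPM and was high in replicate 3. The median biological coefficient of variation, the spread beyond counting noise that edgeR estimates for each gene alone, was 0.120 over the 35 members and 0.108 over expressed protein-coding genes. Without replicate 1 it was 0.0746 over the members and 0.0920 over those genes, so the order of the 2 medians turned.

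In CPM, replicates 1, 2 and 3 were the highest library for 24, 3 and 6 of the 33 members, beside 47.5%, 30.3% and 22.3% of all 9604 genes. They were the lowest for 5, 15 and 13 members, beside 18%, 34.9% and 47%. The median log2 ratio between a library and the mean of the other libraries was 0.18, -0.11 and -0.03 over the members in replicates 1, 2 and 3, and 0.09, -0.02 and -0.09 over all the genes. Other scalings moved the members together with all genes. With TMM factors the members' medians were 0.07, -0.08 and 0.06, beside -0.02, -0.00 and 0.00 over all the genes. In TPM as deposited they were -0.16, 0.26 and -0.10, beside -0.26, 0.33 and -0.12. Under each of these 3 scalings the members' median was above that of all genes in replicates 1 and 3 and below it in replicate 2. With TPM rescaled to protein-coding genes it was not above it in replicate 3, at -0.13 beside -0.12.

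**Figure D4:**
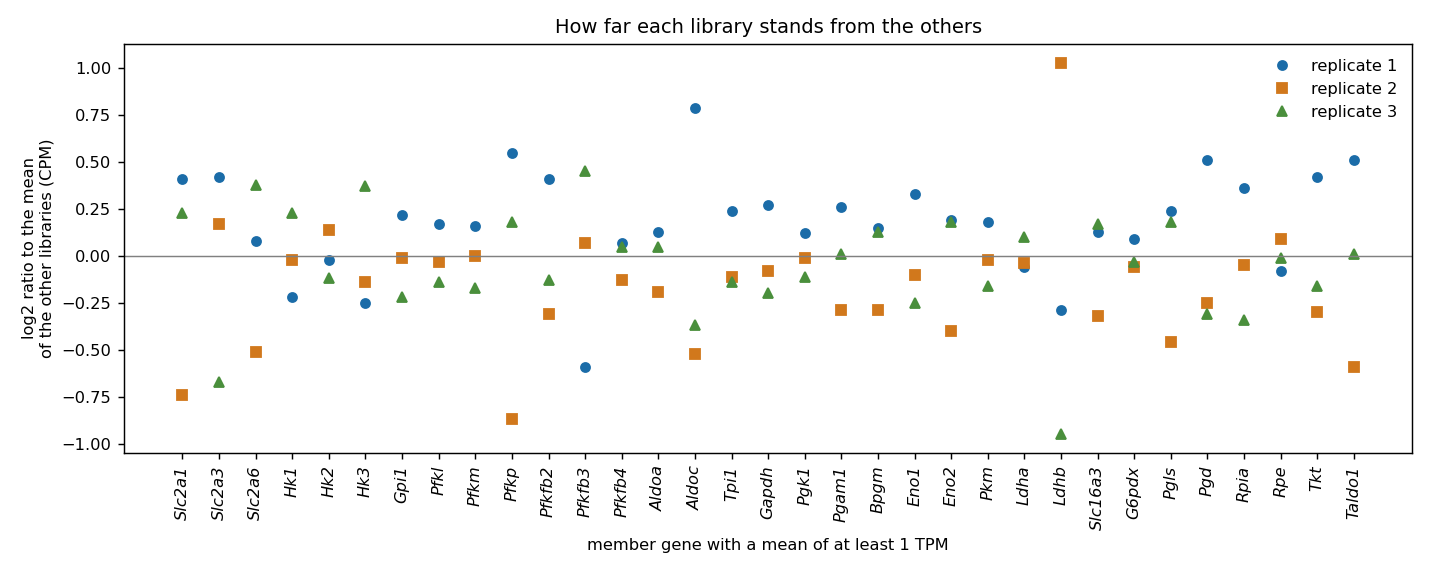
Log2 ratio in CPM between a library and the mean of the other libraries, with 1 point per library, for the 33 members whose mean reached 1 TPM. Ldhb in replicate 2, at 1.03, and Ldhb in replicate 3, at -0.95, lie farthest from 0.

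Transcripts with a retained intron, looked at after their values had been seen, held 1.25%, 0.603% and 0.543% of the counts of the 27 members that have such a model. Over 5990 expressed protein-coding genes with such a model they held 4.06%, 2.78% and 2.35%. The share was highest in replicate 1 for 20 of the 25 members with such counts, beside 76.9% of 5757 protein-coding genes. The members with the largest shares in replicate 1 were Pfkp, with 14.1%, 9.00% and 1.66%, and Eno2, with 21.8%, 9.01% and 4.43%. This ranking depends on the table. In the read-based one the replicate 1 shares were 26.8% for Eno2, 24.7% for Slc2a3 and 17% for Pfkp. Nuclear noncoding RNAs were also highest in replicate 1, with 8329, 3480 and 1444 CPM for Malat1 and 924, 212 and 152 CPM for Neat1. Their part in the members' values was not tested.

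Near-identical copies, sharing 95% or more of their bases across 50% or more of the transcript, were found for 6 members, Gapdh, Pgk1, Eno1, Pkm, Ldha and Ldhb. The copies held 0.875% of the counts of all 35 members. For Gapdh, 51 of 71 copies had counts, together equal to 4.21% of its own and 1.34% in the read-based table. The processed pseudogene Gm7336, with 844, 94 and 671 counts in replicates 1, 2 and 3, led in replicates 1 and 3. In replicate 2 other Gapdh pseudogenes led, with 378 counts each. The pseudogene Gm5537 held 4.94% for Pgk1. The copies of Eno1 held 1.82%, of which the gene Eno1b held 1.32%. The pseudogene Gm5514 held 7, 0 and 6 counts in replicates 1, 2 and 3, equal to 7.64%, 0% and 11.2% of those of Ldhb. Reads of these copies and of the members cannot be told apart with certainty, so those 4 levels are uncertain. Copies across less of a transcript were not counted, so members without a copy here may still have shorter ones.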

How the data were processed

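Per the deposited description files, each of 3 libraries has gene and transcript tables that come from a transcriptome alignment and a further transcript table that comes from the reads. In the former the authors give expected counts, TPM, FPKM and bounds of TPM, and in the latter estimated counts and TPM. These name build mm10 and GENCODE release M21. Which programs were run is not given in the sources used here. Expected counts as deposited are not normalized, and the authors scaled TPM and FPKM within each library. The other deposited values, the bounds, were not used for a result. Identifiers outside the annotation held 0.194%, 0.247% and 0.0227% of the counts and were left out.

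Members and lists were chosen with earlier results of these data known. All members are named, with other pathway genes of at least 1 TPM on average, copies holding at least 1% of a member's counts, and markers at 0 or at 1 TPM or more. Slc2a2, Slc2a4, Slc2a5, Slc16a8, Pklr, Fbp1 and Fbp2 fall outside that rule and were named after their values were seen, as were the transcripts of Hk2, Gpi1, Bpgm and Pfkfb4. Isozymes were compared on log2(TPM + 1), which understates differences of low genes, and libraries in CPM of nuclear protein-coding genes with an offset of 0.1. Dispersion used edgeR 4.0.16 in R 4.3.3 on rounded expected counts with TMM factors and an intercept only. It was tested on simulated data. The package's default pulled variable genes to the trend and did not recover their simulated spread, so each gene's own estimate was used instead. With so few libraries the median of such estimates lies below the true spread, for the members and for all genes alike. DESeq2 1.42.0 was an alternative. Copies were found with blastn 2.17.0 against the annotated transcripts, from which the exon sequences were also read. Python 3.11.15, numpy 2.4.6, pandas 2.3.3 and matplotlib 3.10.9 did the rest. Alternatives covered limits, pseudocounts, scalings, the read-based table and leaving out each library.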

Additional observations from a re-analysis of the deposited data

How the results depend on the processing

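The count of 31 members at 1 TPM or more fell to 24 in the read-based table and was 35 once that table was rescaled to protein-coding genes. Under the other alternatives it was 31 to 35. The number of pairs with 1 direction, 18, was 18 or 19 under each alternative. The mean difference of none of those 18 pairs changed sign under 7 alternatives. Tkt over Taldo1, at -0.00, was 0.10 in the read-based table, also when rescaled, and -0.07 to 0.04 with a library left out. The median member level of 22.4 TPM was 10.1 in the read-based table and 63.5 after rescaling to protein-coding genes. Glycolysis minus pentose phosphate, taken gene by gene and -1.04 on average, was -0.41 with means in place of medians and -0.62 for members whose mean reached 1 TPM. The median log2 ratio of replicate 1 turned from 0.18 to -0.16 and that of replicate 2 from -0.11 to 0.26 in TPM as deposited, and that of replicate 3 from -0.03 to 0.06 with TMM and 0.07 with DESeq2 factors. The medians of all genes moved likewise, from 0.09 to -0.26 and from -0.02 to 0.33 in TPM and from -0.09 to 0.00 and 0.01 with the factors. The median coefficient of variation of the members, 0.120, was 0.0746, 0.0834 and 0.0923 without replicates 1, 2 and 3. That of expressed protein-coding genes fell likewise, from 0.108 to 0.0920, 0.0800 and 0.0842. Medians from 2 libraries cannot be compared in size with those from 3. The members' median was 0.168 when shrunk to the trend, an alternative added after seeing the data, as were the rescaled read-based values. The leading transcripts held 74.8% on average, and 71.9% in the read-based table. Copies held 0.875% and 0.278% of the members' counts in the 2 tables. The causes of the other changes were not tested. No paired analysis was possible because there is 1 group. Low members rest on few counts, 18 for Pfkfb1 in replicate 2 and 55 for Ldhb in replicate 3 at the lowest.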
